A study of Mus musculus with 24 samples.

Results

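The sirtuins are a family of 7 genes in the mouse, Sirt1 to Sirt7, and every probe whose target accession belongs to one of them was taken. These were 14 of the 56605 probes on the array and 7 of the 22911 genes that could be named. Sirt4 had 3 probes, Sirt3 had 1 and each of the other genes had 2, and the probes of a gene are numbered from the brightest down. RNA had been taken from 4 organs, namely kidney, liver, lung and white fat (white adipose tissue, WAT), of male C57BL/6J mice at 10 weeks and at 90 weeks, with 3 mice in each of the 8 groups and 1 array for each sample, 24 in all. The labels name no treatment or altered allele for any group, and the aged livers are numbered 1, 2 and 4. The RNA is that of whole tissue, so fewer cells of a type and less RNA in each cell cannot be told apart. All 6 arrays of a tissue lay on 1 slide and in 1 scan with both ages on it, so that ages were compared within a slide, whereas tissue and slide cannot be told apart. The questions were how the level of each sirtuin transcript at 90 weeks compares with that at 10 weeks in each organ, and whether this difference varies between the organs.

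Sirtuins are enzymes that remove acyl groups from lysines of other proteins and consume NAD+ with each turn, which ties them to the supply of this cofactor. Sirt1, Sirt6 and Sirt7 work mainly in the nucleus, on transcription factors, on histones and in the nucleolus, respectively. Sirt2 is mostly cytosolic and is known for deacetylating tubulin. Sirt3, Sirt4 and Sirt5 are mitochondrial: Sirt3 is the main deacetylase of the matrix, Sirt4 restrains the entry of glutamate and pyruvate into the citric acid cycle, and Sirt5 removes succinyl, malonyl and glutaryl groups. Liver and kidney tubule are rich in mitochondria and rely on the oxidation of fatty acids, which is the setting in which the mitochondrial members have mostly been studied.

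The sequences just upstream of the 3 mitochondrial sirtuin genes are shown because all 3 genes were called lower in aged kidney, as described below. Sirt2 and Sirt7 were called lower there as well, and their sequences are not shown. They are those of RefSeq on the assembly GRCm38.p6, written on the strand of the sirtuin gene, and capitals mark matches to the motifs searched for. The start of Sirt3 lies 84 bases from that of Psmd13, a subunit of the proteasome lid, which is read in the opposite direction, and the stretch between the 2 starts is chr7:140882310-140882393 on the minus strand.
Sirt3 to Psmd13: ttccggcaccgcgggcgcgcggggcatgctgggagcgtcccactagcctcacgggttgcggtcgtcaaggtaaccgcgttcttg
The 250 bases before Sirt4 are chr5:115484298-115484547 on the minus strand.
Sirt4: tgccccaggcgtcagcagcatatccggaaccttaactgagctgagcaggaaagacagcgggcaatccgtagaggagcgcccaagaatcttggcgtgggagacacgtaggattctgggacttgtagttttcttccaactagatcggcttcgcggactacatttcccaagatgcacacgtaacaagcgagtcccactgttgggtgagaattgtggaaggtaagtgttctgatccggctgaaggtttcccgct
The 250 bases before Sirt5 are chr13:43365285-43365534 on the plus strand.
Sirt5: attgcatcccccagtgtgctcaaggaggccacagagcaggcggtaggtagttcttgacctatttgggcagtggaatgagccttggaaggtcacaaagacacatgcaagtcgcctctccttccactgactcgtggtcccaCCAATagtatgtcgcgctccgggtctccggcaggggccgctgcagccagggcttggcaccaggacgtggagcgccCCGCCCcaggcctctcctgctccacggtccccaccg

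Each of these stretches holds more CpG dinucleotides than the median window, while the GC content of the Sirt4 window is close to the median. The stretch between Sirt3 and Psmd13 has a GC content of 69% with 12 CpG dinucleotides, and the windows of Sirt4 and Sirt5 have 53.2% with 14 and 62.8% with 13, against medians of 52.4% and 6 over the 32851 windows of 250 bases before the starts of 27025 genes. The Sirt3 stretch is shorter than these windows, and the full 250 bases before this start of Sirt3 have 62.4% with 21. Both strands were searched for the GC box GGGCGG, the CCAAT box, the TATA box TATAAA, the E-box CACGTG, the FOXO site GTAAACA and the ETS site CCGGAAG. The Sirt5 window holds 1 CCAAT and 1 GC box, the latter in the opposite orientation, and the Sirt4 window holds none of the 6 motifs. The 84 bases between Sirt3 and Psmd13 hold none whole, but the full window of 250 bases before this start of Sirt3 holds 1 ETS site, and the window before a second start of Sirt3 holds 3 GC boxes and 1 CCAAT box. Of all windows, 33.8% hold CCAAT, 32.7% the GC box, 12.4% TATAAA, 6.02% the E-box, 3.17% the FOXO site and 6.91% the ETS site. No measurement here bears on the binding of any factor to them.

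A level is the log2 of a probe's background-subtracted signal minus the log2 of the 75th percentile of all probes on the same array, so that 0 stands for that percentile and a step of 1 for 2-fold. Levels of different probes cannot be set against each other. Where the ages are said to be separate or not to overlap on a probe, this describes the arrays and is no test. The share of all probes that separate likewise was not computed. The 75th percentile itself lay between 259 and 956 fluorescence units, between 58.6% and 71.1% of the probes of an array were well above background, and arrays of a group correlated at 0.942 to 0.995, with the lowest values for WAT_10W replicate 1. The brightest probe of every sirtuin gene was well above background on all 24 arrays. Sirt5 probe 2 was too dim to be tested for age in liver, lung and kidney, as was Sirt6 probe 2 in liver. Defining markers of hepatocytes, lung epithelium, kidney tubule and adipocytes were well above background on every array of their own tissue.

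**Figure D1:**
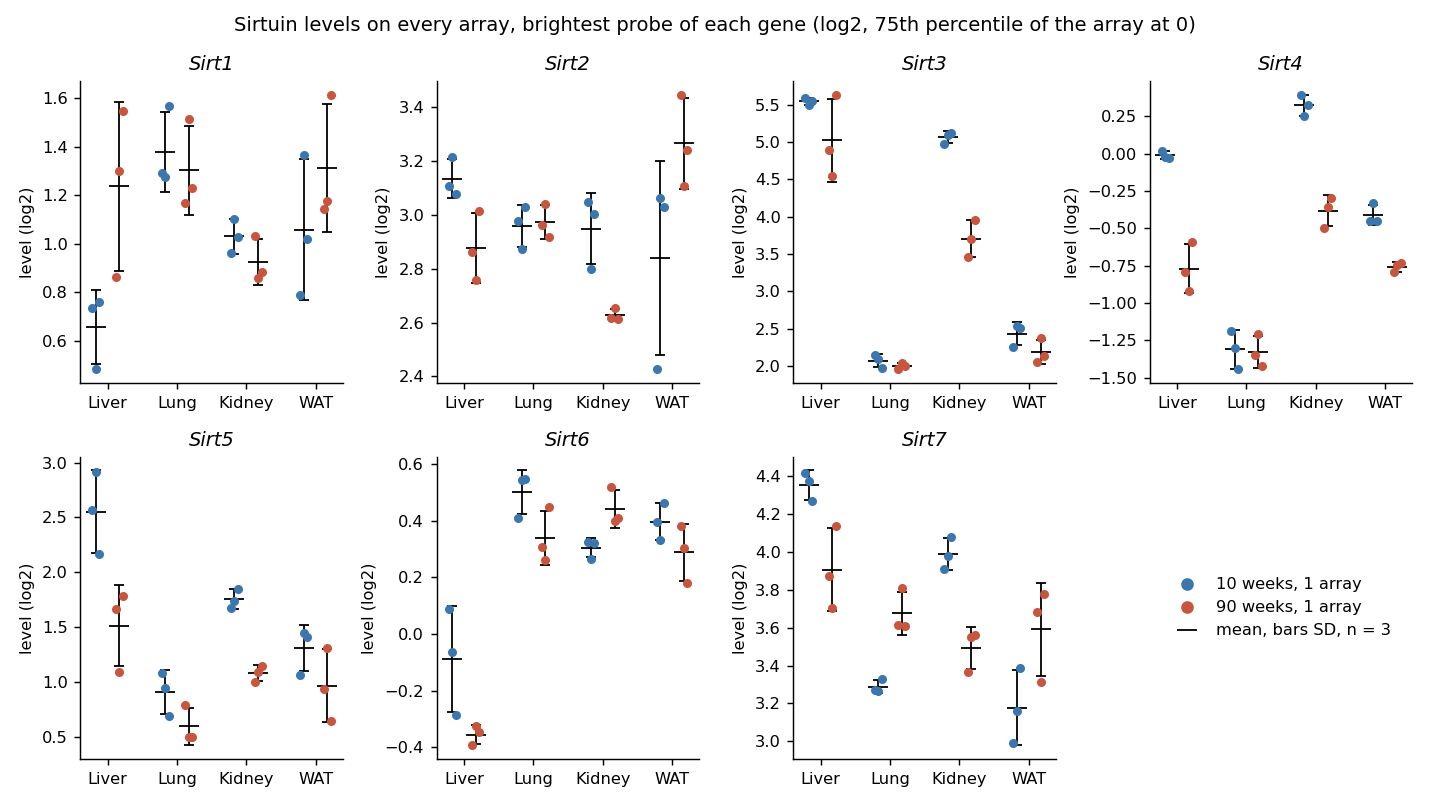
Level of the brightest probe of each sirtuin gene (log2, with the 75th percentile of each array at 0) in the 4 tissues, with a blue point for each array at 10 weeks, a red point for each array at 90 weeks, and black lines for the mean and SD of 3 arrays. Sirt3 in kidney was at 4.98 to 5.13 at 10 weeks and 3.47 to 3.96 at 90 weeks, and its levels in lung and WAT lay below both.

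In the kidney, Sirt3 transcript was 0.390 times as abundant at 90 weeks as at 10 weeks, and the other mitochondrial sirtuins, Sirt4 and Sirt5, fell as well. Sirt3 was at 4.98, 5.09 and 5.13 in the 3 young kidneys and at 3.47, 3.69 and 3.96 in the 3 aged ones. The 2 groups lay more than 1 unit apart. The change was -1.36 (SE 0.14, 95% interval -1.69 to -1.03), with an adjusted p of 0.000466 by limma over the 40044 probes tested in kidney, and 3.58% of those probes had a change below it. Sirt4 probe 1 was at 0.39, 0.25 and 0.33 in young kidneys and at -0.50, -0.36 and -0.29 in aged ones, so the groups did not overlap. Its change was -0.71 (SE 0.090, adjusted p = 0.000993), and the other 2 Sirt4 probes, which are dimmer, both changed by -0.89 (adjusted p = 0.000546 and 0.00104). Sirt5 probe 1 was at 1.67, 1.74 and 1.85 at 10 weeks and at 1.00, 1.09 and 1.14 at 90 weeks. Here too every aged kidney was below every young one, and the change was -0.68 (SE 0.087, adjusted p = 0.00103).

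Nuclear and cytosolic members did not share a direction in the kidney, and the drop of Sirt7 probe 2 was about that of Sirt5 probe 1. Sirt7, which acts on ribosomal RNA transcription in the nucleolus, was at 3.91, 3.98 and 4.08 in young kidneys and at 3.36, 3.55 and 3.56 in aged ones by probe 1. It fell by 0.50 with that probe (SE 0.095, adjusted p = 0.00462) and by 0.70 with probe 2 (adjusted p = 0.00528). Sirt2 probe 1 was at 3.05, 2.80 and 3.0 at 10 weeks and at 2.62, 2.65 and 2.61 at 90 weeks. Its aged values lay within a narrow band under the lowest young value, with changes of -0.32 and -0.37 for the 2 probes (adjusted p = 0.0226 and 0.00795). The 2 probes of Sirt1, the best studied member, disagreed. The brighter one overlapped between ages, at 0.96, 1.1 and 1.03 against 1.03, 0.86 and 0.88, and gave -0.11 (adjusted p = 0.329). The dimmer one was at -3.08, -3.12 and -3.23 against -3.67, -3.97 and -3.67 and gave -0.63 (adjusted p = 0.00339), so that no direction can be given for the gene. Sirt6, a histone deacetylase of telomeric and glycolytic gene chromatin, differed in direction: all aged kidneys were above all young ones on both probes, at 0.52, 0.40 and 0.41 against 0.33, 0.27 and 0.32 by probe 1, but the change of 0.14 on each probe did not pass the test (adjusted p = 0.163 and 0.176). In all, 10 of the 13 sirtuin probes tested in kidney were called lower and 0 higher, where 42.3% of all kidney probes were lower and 20.5% higher, and the median change was -0.63 for the sirtuin probes and -0.23 for all probes.

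How far the kidney levels fell depended on the scaling of the arrays, and the whole distribution of signal moved with age there. The 75th percentile of the kidney arrays was 460 to 618 at 10 weeks and 788 to 862 at 90 weeks, while the median of their spike-in controls, RNA of known amount added before labelling, was 834 to 959 and 986 to 1079. With the spike-in controls as the scale, the median change of all kidney probes went from -0.23 to 0.18 and the share of called probes that were higher at 90 weeks from 32.6% to 69.8%. Sirt3 was the sirtuin gene that kept its call in all 16 alternative settings, with changes between -1.48 and -0.95 and adjusted p between 2.99e-05 and 0.00469. Sirt4 and Sirt5 each kept the call of the brightest probe in 15 of 16 and lost it with spike-in scaling, at -0.30 and -0.27 (adjusted p = 0.168 and 0.163), though the other 2 Sirt4 probes stayed called. Sirt7 kept it in 13 of 16 and was at -0.091 with spike-in scaling and -0.13 with quantile normalization. Sirt2 kept it in 7 of 16, turned to 0.084 with spike-in scaling, and lost the call when any kidney array except Kidney_10W replicate 2 was left out, with adjusted p of 0.0530 to 0.0678. Sirt6 was called higher with spike-in scaling, at 0.54 (adjusted p = 0.0262), and at 0.37 (adjusted p = 0.00817) when the median change of all probes was set to 0, which was added after seeing the data. With that centring 7 sirtuin probes were lower and 2 higher. Relative to the median of all kidney probes, Sirt3 was at -1.13, Sirt4 probe 1 at -0.48, Sirt5 probe 1 at -0.45, Sirt7 probe 1 at -0.27, Sirt2 probe 1 at -0.094, Sirt1 probe 1 at 0.12 and Sirt6 probe 1 at 0.37. A shift of a whole array by 1 value cannot alter this measure, but quantile normalization can. With quantile normalization the median was -0.17, and Sirt7 probe 1 and Sirt2 probe 1 lay above it, at -0.13 and -0.060.

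**Figure D2:**
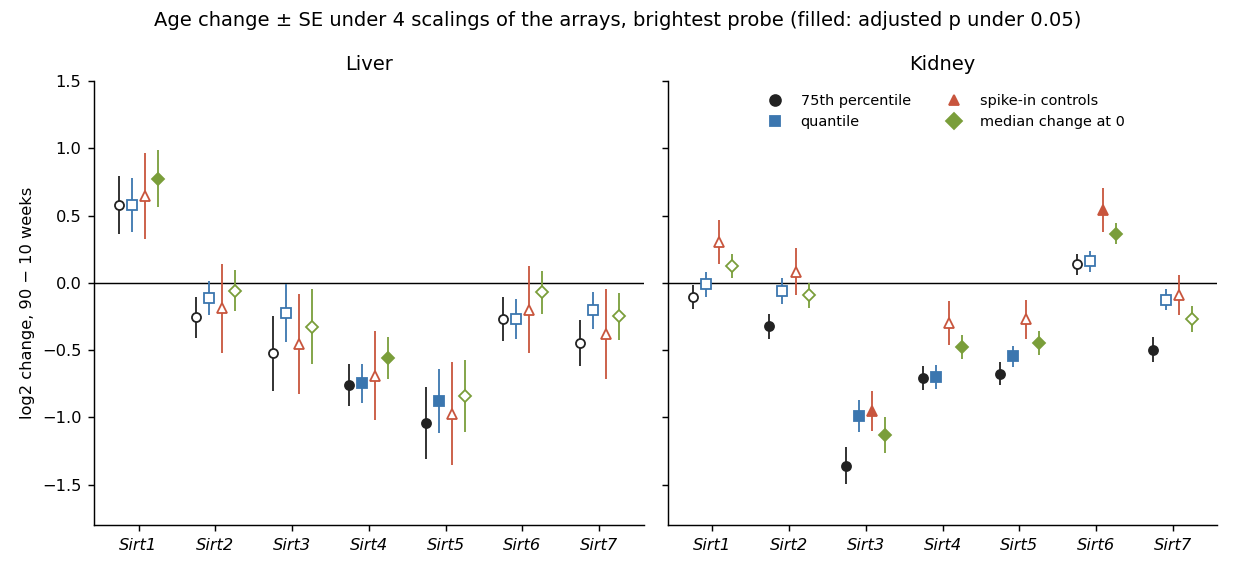
Age change (log2, 90 minus 10 weeks, with SE) of the brightest probe of each sirtuin gene in liver and kidney under 4 scalings of the arrays, filled where the adjusted p is under 0.05. In kidney, Sirt3 is filled and under -0.9 in all 4, and Sirt2 runs from -0.32 to 0.084, changing sign with spike-in scaling.

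Markers of cell types moved in the kidney together with the sirtuins. The summed signal of 5 tubule markers, relative to the 75th percentile, was 574, 583 and 695 in young kidneys and 190, 303 and 385 in aged ones. Umod, Slc34a1, Slc12a1 and Slc12a3, which mark proximal and distal tubule segments, fell by 1.03, 1.24, 1.21 and 1.63 on the log2 scale, whereas Aqp2 was not called. Umod lost its call with quantile normalization, spike-in scaling or the median change set to 0, and Slc12a1 lost it with quantile normalization. The summed signal of the 14 immune cell markers was 18.6 to 27.4 in young and 52.5 to 84.9 in aged kidneys, with 12 of 13 tested markers higher and Ngp well above background on no kidney array. Adipocyte markers were split, with 4 of 6 higher and 2 lower and a summed signal of 63.6 to 78.7 against 31.6 to 34.6. The hepatocyte list, part of which the kidney also expresses, summed to 104 to 133 and 44.6 to 70.4, with 4 of 4 tested lower. Beside these counts, 20.5% of all kidney probes were higher and 42.3% lower. The part of these cell types in the sirtuin levels was not tested.

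In the liver, Sirt4 and Sirt5 were lower at 90 weeks and no sirtuin probe was called higher. Sirt4 probe 1 was at 0.019, -0.025 and -0.029 in young livers and at -0.79, -0.92 and -0.59 in aged ones. The groups were separate on all 3 Sirt4 probes, with changes of -0.76 (SE 0.16), -0.92 and -0.96 (adjusted p = 0.0174, 0.0222 and 0.0188). Sirt5 probe 1 was at 2.57, 2.92 and 2.17 at 10 weeks and at 1.67, 1.09 and 1.78 at 90 weeks, a change of -1.04 (SE 0.27, adjusted p = 0.0318) with a wide spread in both groups. Sirt7 probe 2, at 0.27, -0.028 and -0.048 against -0.54, -0.84 and -0.51, fell by 0.69 (adjusted p = 0.0314). Sirt7 probe 1, at 4.42, 4.37 and 4.27 against 3.87, 3.70 and 4.14, gave -0.45 and missed the threshold (adjusted p = 0.0914), although its groups did not overlap either. Thus 5 of 12 sirtuin probes tested were called lower and 0 higher, where 16% of the 35377 liver probes were lower and 10.2% higher, and the medians were -0.49 for the sirtuins and -0.20 for all probes.

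Sirt3 in the liver was at 5.59, 5.50 and 5.55 in the young and at 4.89, 4.54 and 5.63 in the aged animals. The highest aged value belonged to Liver_90W replicate 4 and lay above all young ones, so that the change of -0.52 (95% interval -1.18 to 0.13, adjusted p = 0.192) was not called. Without that array Sirt3 was called lower (-0.83, adjusted p = 0.0270). Sirt1 probe 1 was at 0.73, 0.48 and 0.76 in young livers and at 0.86, 1.30 and 1.55 in aged ones, all above the young, with a change of 0.58 (adjusted p = 0.0841) that passed the test with normexp background correction, with the median change set to 0, or when all 24 arrays shared 1 estimate of the spread. The dimmer Sirt1 probe 2 overlapped between ages and gave 0.17 (adjusted p = 0.662), and the mean of the gene's probes gave 0.37 (adjusted p = 0.185). Sirt2 and Sirt6 were not called, at -0.26 and -0.27 by their brightest probes (adjusted p = 0.238 and 0.244).

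The liver calls rested in part on single arrays. Sirt4 kept its call in 12 of 16 alternative settings and lost it without Liver_10W replicate 1 or replicate 2 (adjusted p = 0.0614 and 0.0700), with spike-in scaling and with the replicate number as a block. Sirt5 kept its call in 8 of 16, with changes between -1.37 and -0.83 throughout. Besides the settings in which Sirt4 lost it, the call of Sirt5 was lost without Liver_90W replicate 1 or replicate 2. It was also lost with the methods' t-test after adjustment (adjusted p = 0.0990) and by limma with the median change set to 0 (adjusted p = 0.0671). With spike-in scaling no sirtuin probe was called in liver, with Sirt4 at -0.69 (SE 0.33) and Sirt5 at -0.97 (SE 0.38) by their brightest probes. The share of called liver probes that were higher went from 38.8% to 70.1% with that scaling, or to 67.0% with the median change set to 0. Immune cell markers summed to 25.0 to 27.4 in young livers, to 110 and 80.0 in Liver_90W replicates 1 and 4, and to 1172 in Liver_90W replicate 2, with 6 of 14 markers higher. Hepatocyte markers summed to 2970 to 3408 in young and 2019 to 2396 in aged livers, with 1 of 6, Ttr, called lower. Beside these counts, 10.2% of all liver probes were higher and 16% lower, so that the hepatocyte count is not set apart from the background. Ttr lost its call with quantile normalization, spike-in scaling or the median change set to 0, whereas 2 of the 6 were lower with normexp background correction. Without replicate 2, the aged liver with the highest immune sum, Sirt4 stayed called (-0.68, adjusted p = 0.0406) and Sirt5 did not (-0.83, adjusted p = 0.0672). The part of these cells in the sirtuin levels was not tested.

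In the lung, 0 of 13 sirtuin probes were called in either direction by limma, where 2.70% of the 38814 probes tested were higher and 2.79% lower at 90 weeks, and 2 sirtuin probes had an unadjusted p under 0.05. Both were probes of Sirt7. Probe 1 was at 3.27, 3.26 and 3.33 in young lungs and at 3.61, 3.81 and 3.61 in aged ones. Probe 2 was at -1.36, -1.20 and -1.05 and at -0.85, -0.80 and -0.80. Every aged lung was above every young one on both probes, with changes of 0.39 on each (adjusted p = 0.0715 and 0.0892), and probe 1 was called higher with quantile normalization. Sirt3, at 2.15, 2.09 and 1.98 against 1.95, 2.04 and 2.0, gave -0.072 with a 95% interval of -0.29 to 0.15, which leaves out a drop of the size seen in kidney. The remaining lung changes of brightest probes lay between -0.31, for Sirt5, and 0.014, for Sirt2, and no group was separate from the other. Immune cell markers summed to 175 to 294 in young and 359 to 1241 in aged lungs, with 4 of 14 higher. Hepatocyte markers were at 0.428 to 8.37 in young lungs and reached 215 in Lung_90W replicate 1, where none of 4 tested was called. Red blood cell markers summed to 46.5 to 248 in young and 582 to 974 in aged lungs, with 1 of 4 tested higher. Adipocyte markers summed to 55.6 to 81.5 and 24.1 to 51.1, with 2 of 6 lower, and those of striated and cardiac muscle to 50.1 to 137 and 9.73 to 78.3, with 1 of 6 lower. The part of these cells in the lung levels was not tested.

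In WAT, 0 of 14 sirtuin probes were called by limma, where 1.97% of 38295 probes were higher and 0.582% lower, and 0 had an unadjusted p under 0.05. Sirt2 probe 1 was at 2.43, 3.06 and 3.03 in young WAT and at 3.45, 3.11 and 3.24 in aged WAT. Its aged values were all higher, but WAT_10W replicate 1 stood apart from the other young arrays, and the change of 0.43 was not called (adjusted p = 0.365). Sirt4 probe 1 was at -0.45, -0.33 and -0.45 and at -0.79, -0.75 and -0.73, with a change of -0.35 (95% interval -0.70 to 0.0026, adjusted p = 0.257). Sirt7 probe 1, at 2.99, 3.16 and 3.39 against 3.68, 3.31 and 3.78, overlapped between ages and gave 0.41 (adjusted p = 0.324). When all 24 arrays shared 1 estimate of the spread, Sirt2 and Sirt7 were called higher and Sirt4 lower in WAT. Sirt3 gave -0.24 (95% interval -0.67 to 0.18) and Sirt5 probe 1 -0.34. Immune cell markers summed to 27.9 to 129 in young and 230 to 934 in aged WAT, with 6 of 13 tested higher, and adipocyte markers to 1213 to 1644 and 1211 to 1469, with 0 of 6 called. The part of these cells was not tested.

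**Figure D3:**
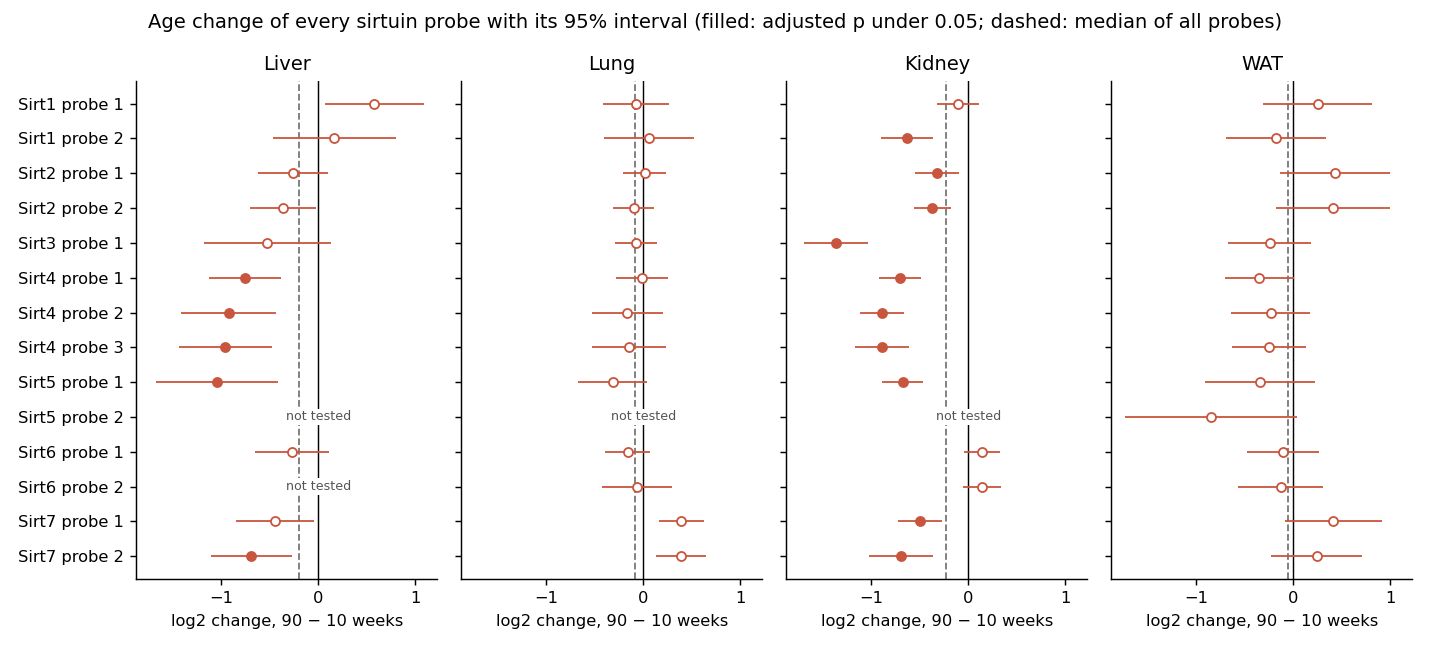
Age change (log2, 90 minus 10 weeks, with its 95% interval) of all 14 sirtuin probes in each tissue, filled where the adjusted p is under 0.05, with the dashed line at the median change of all probes tested. The filled points are 10 of 13 in kidney and 5 of 12 in liver, all under 0 at this scaling, and 0 in lung and WAT.

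Whether the age change itself differed between tissues was tested in 1 fit of all 24 arrays. By the F test over the 4 tissues it differed for Sirt2, Sirt3, Sirt4 and Sirt7 on all 8 of their probes, with adjusted p from 0.000859 for Sirt7 probe 2 to 0.0283 for Sirt2 probe 1, where 30.0% of all 44074 probes passed the same test. Sirt1, Sirt5 and Sirt6 did not pass (adjusted p = 0.116, 0.161 and 0.151 by the brightest probes). For Sirt3 the kidney differed from lung, where the change was higher by 1.29 (adjusted p = 0.00358), and from WAT, by 1.12 in the same direction, written as -1.12 for kidney minus WAT (adjusted p = 0.00889). The change of Sirt3 in liver was 0.84 above that in kidney, which missed the threshold (adjusted p = 0.0680). For Sirt4 the liver change was below the lung change by -0.74, -0.75 and -0.81 on the 3 probes (adjusted p = 0.00424, 0.0336 and 0.0241), and the lung change was above the kidney change by 0.69, 0.72 and 0.74 (adjusted p = 0.00387, 0.0292 and 0.0266). Against WAT, the liver change of Sirt4 was lower on probes 2 and 3 and the kidney change on probe 2. Sirt7 separated liver and kidney on 1 side from lung and WAT on the other on both probes: by probe 1, liver minus lung was -0.84, liver minus WAT -0.86, lung minus kidney 0.89 and kidney minus WAT -0.91 (adjusted p = 0.0104, 0.00795, 0.00462 and 0.00393). Sirt2 differed between WAT and both liver and kidney, with liver minus WAT at -0.68 and -0.77 (adjusted p = 0.0326 and 0.0170) and kidney minus WAT at -0.75 and -0.78 (adjusted p = 0.0156 and 0.0116), while lung minus WAT was not called (adjusted p = 0.324 and 0.205).

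Counted by pair of tissues, 5 of 14 sirtuin probes had a called difference between liver and lung, where 11.5% of all probes did, 6 between liver and WAT (13.7%), 6 between lung and kidney (18.3%) and 6 between kidney and WAT (19.5%). Between liver and kidney it was 0 of 14, where 8.43% of all probes differed, and between lung and WAT 0 of 14, where 2.79% did. At an unadjusted p under 0.05 the sirtuin probes passing were 4 of 14 between liver and kidney and 2 between lung and WAT. These differences rested on the scaling and on the number of mice. With spike-in scaling no sirtuin gene passed the F test (lowest adjusted p = 0.0897), and with the median change set to 0 Sirt3, Sirt4 and Sirt7 did. Leaving out each array in turn, a choice made after seeing the data, kept Sirt3, Sirt4 and Sirt7 in all 24 fits, whereas Sirt2 was lost without Kidney_10W replicate 1 or 3, Kidney_90W replicate 1 or WAT_90W replicate 1, and Sirt1 was gained without Liver_90W replicate 1. Leaving out replicate 1 or replicate 2 in every group at once left 0 genes, and leaving out replicate 3 left Sirt7.

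Between tissues at 10 weeks, Sirt3 showed the widest range of the family, and each tissue was read from its own slide. Its mean level was 5.54 ± 0.046 in liver, 5.07 ± 0.077 in kidney, 2.43 ± 0.15 in WAT and 2.07 ± 0.086 in lung (SD, n = 3). Kidney exceeded WAT by 2.64 (adjusted p = 2.08e-09), and liver and kidney stayed above lung and WAT in all 20 alternative settings, although the distance of liver from lung shrank from 3.47 to 2.05 with spike-in scaling. Liver exceeded kidney by 0.48 (adjusted p = 0.0439), which passed in 8 of 20 alternatives and was 0.0041 with spike-in scaling. WAT and lung did not differ beyond their spread (0.36, adjusted p = 0.131), and spike-in scaling reversed their order, to 0.61 for lung minus WAT.

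The other mitochondrial members followed partly the same order. Sirt4 probe 1 was at 0.32 in kidney, -0.012 in liver, -0.41 in WAT and -1.31 in lung, and each neighbour in this order differed from the next (adjusted p = 0.0114, 0.00280 and 1.27e-06). By its other 2 probes kidney and liver did not differ (adjusted p = 0.652 and 0.874), and with spike-in scaling liver fell to just below lung and WAT, at -0.13 and -0.064 relative to them. Sirt5 probe 1 was at 2.55 in liver and 1.75 in kidney, which differed (adjusted p = 0.00323), and at 1.31 in WAT and 0.91 in lung, where the neighbours did not differ (adjusted p = 0.0770 for kidney and WAT, 0.116 for WAT and lung). Lung was 0.10 above kidney for Sirt5 with spike-in scaling.

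Among the nuclear and cytosolic members, Sirt7 probe 1 was at 4.35 in liver, 3.99 in kidney, 3.29 in lung and 3.18 in WAT. Liver and kidney differed (adjusted p = 0.0332), as did kidney and lung (adjusted p = 0.000236), while lung and WAT did not (adjusted p = 0.531). With spike-in scaling lung moved above both, by 0.36 over liver and 0.25 over kidney, and liver fell 0.11 below kidney. Sirt6 ran the other way: its brightest probe was lowest in liver, at -0.088, below kidney at 0.31 (adjusted p = 0.00345), WAT at 0.40 and lung at 0.50, and those last 3 did not differ as neighbours. Liver was lowest for Sirt1 by probe 1 as well, at 0.66 against 1.38 in lung, a difference of -0.72 (adjusted p = 0.00163) that passed in all 20 alternatives, although no neighbours in the order of Sirt1 differed. By the dimmer probe 2 WAT was lowest, at -3.53 against -3.34 in liver, and liver and lung did not differ beyond their spread (adjusted p = 0.643). Sirt2 probe 1 lay at 2.84 to 3.13 in the 4 tissues with no pair called, but with spike-in scaling liver was 1.25 below lung. By Sirt2 probe 2 liver exceeded WAT, at 1.36 against 1.01 (adjusted p = 0.0372). In counts over all 14 probes, 10 differed between liver and lung (71.4% of all probes did), 6 between liver and kidney (54.3%), 11 between liver and WAT (65.5%), 7 between lung and kidney (62.1%), 4 between lung and WAT (51.4%) and 6 between kidney and WAT (54.8%).

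Sirtuins need NAD+, and most tested genes of a list for its synthesis were lower in the aged kidney. Most tested genes for enzymes that use it or its breakdown product nicotinamide were higher. The synthesis list also holds the NAD kinases Nadk and Nadk2 and the carrier Slc25a51, which do not make NAD+ and were all lower there. Of 16 tested genes of NAD synthesis, 14 were lower and 1, Kynu, higher in kidney, with a median change of -0.87, beside 42.3% of all kidney probes lower and 20.5% higher and their median of -0.23. The largest changes were in the kynurenine route from tryptophan, with Ido2 at -2.41 (adjusted p = 0.000336), Haao at -2.05 (adjusted p = 0.000374) and Afmid at -1.88 (adjusted p = 0.000434). Nadk2, the mitochondrial NAD kinase, was at -1.31 (adjusted p = 0.000376). With spike-in scaling 10 of the 16 stayed lower and 1 of the 14, Nmnat3, changed sign. Of 13 consumers, 9 were higher and 0 lower in kidney against the same background, with a median of 0.60. Nnmt, which methylates nicotinamide, was at 3.28 (adjusted p = 8.95e-05), the ADP-ribosyltransferases Parp14 and Parp9 at 1.80 and 1.06 (adjusted p = 0.000364 and 0.000277), and the NAD hydrolase Sarm1, well above background on 2 of 3 young kidneys, at 1.63 (adjusted p = 0.000303). The count was 10 higher with spike-in scaling. Bst1 and Cd38 are also expressed by immune cells, whose markers were higher in the same kidneys, and their part was not tested.

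In the liver fewer genes of both lists were called. Of 17 genes of NAD synthesis tested, 7 were lower and 1 higher, with a median of -0.73, beside 16% of all liver probes lower and 10.2% higher and their median of -0.20. Among the lower ones were Tdo2, the first enzyme of tryptophan breakdown in hepatocytes, at -1.37, Kynu at -1.29 and Kmo at -1.13 (adjusted p = 0.0460, 0.0353 and 0.0142). The higher one was Nmnat2, which was well above background on 0 of 3 young and 3 of 3 aged livers and was not called with normexp background correction. With spike-in scaling 2 stayed lower and 1 higher. Of 13 consumers, 5 were higher and 0 lower, with a median of 0.39, the largest being Bst1 at 2.01, Sarm1, well above background on 2 of 3 young livers, at 1.63, Cd38 at 1.22 and Parp14 at 0.91 (adjusted p = 0.0417, 0.00895, 0.00544 and 0.0300). With spike-in scaling 3 of the 13 were higher, namely Cd38, Bst1 and Sarm1. Immune cell markers were higher in the same livers, and their part was not tested. In lung 1 of 18 genes of NAD synthesis was lower, Nmnat2 at -0.75 (adjusted p = 0.0483), and 0 were called with spike-in scaling or with the median change set to 0. In WAT 1 of 16 was higher, Qprt at 1.81 (adjusted p = 0.0420). No consumer was called in lung or WAT, of 13 tested in each, by limma. Nampt, which makes the salvage precursor, was lower in kidney, at -0.88 (adjusted p = 0.0122). In liver it was at 0.86 and missed the threshold (adjusted p = 0.0657), and it was called higher there with normexp background correction, quantile normalization or the median change set to 0. Kynu was lower in liver and higher in kidney, and these contrasts between organs were not tested.

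**Figure D4:**
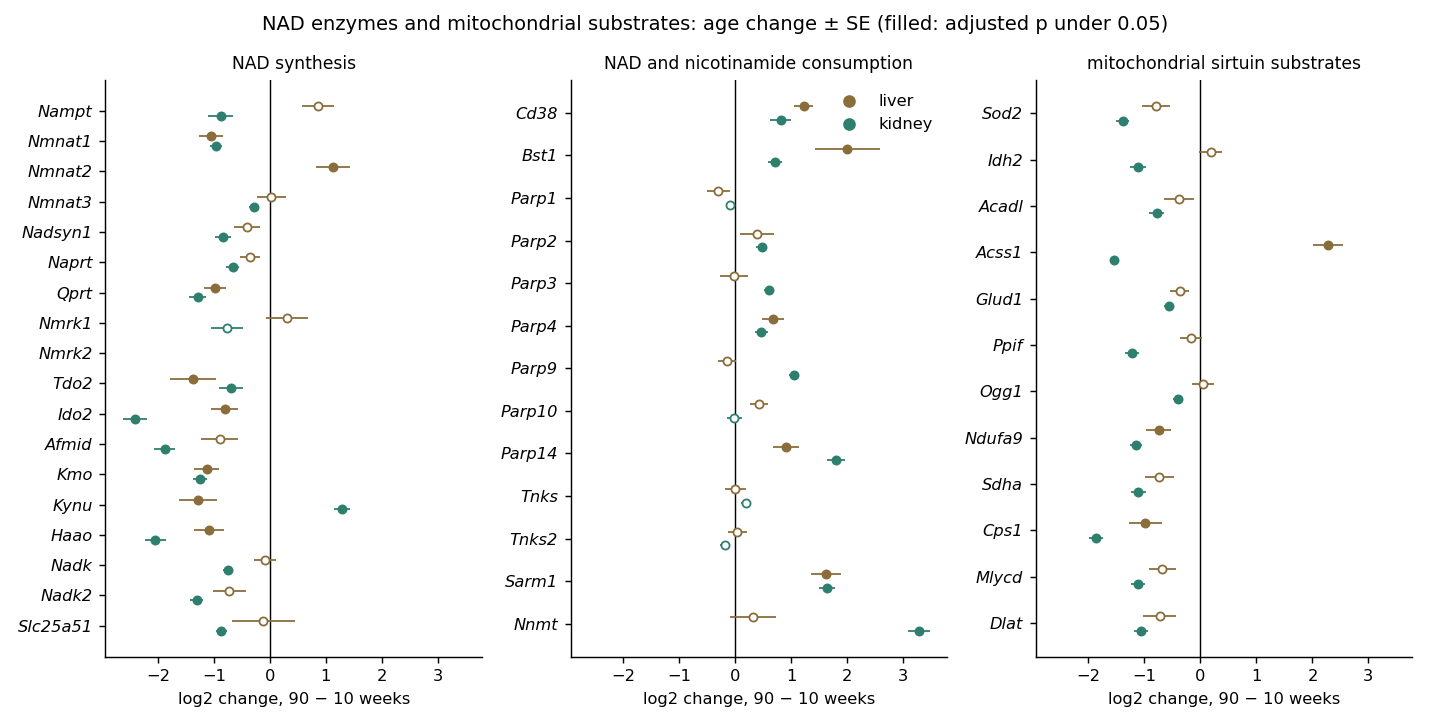
Age change (log2, 90 minus 10 weeks, with SE) in liver and kidney of the genes of NAD synthesis, of NAD and nicotinamide consumption, and of the mitochondrial sirtuin substrates, filled where the adjusted p is under 0.05. In kidney, 14 of 16 genes of synthesis and 12 of the 12 substrates shown lie to the left as filled points, among them Nmnat3 and Ogg1, whose sign changes with spike-in scaling, and 9 of 13 consumers to the right. Nmnat2 in liver and Cps1 in kidney were well above background at 1 of the 2 ages only.

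Genes for proteins that mitochondrial sirtuins act on were lower in the kidney along with Sirt3, Sirt4 and Sirt5. Of the 12 such genes reported here, 12 were lower there, with a median of -1.11, beside the 42.3% of all kidney probes that were lower and their median of -0.23. Acss1, the mitochondrial acetyl-CoA synthetase deacetylated by Sirt3, was at -1.54, and Sod2, the manganese superoxide dismutase, at -1.39 (adjusted p = 5.35e-05 and 0.000240). Cps1, a urea cycle enzyme and Sirt5 substrate, was lower as well (adjusted p = 0.000127), but was well above background on 3 of 3 young and 0 of 3 aged kidneys. The tubule markers, lower in the same kidneys, are given above, and their part was not tested. With spike-in scaling 9 stayed lower and Ogg1 changed sign. In liver 2 of 12 were lower and 1 higher, with a median of -0.53 beside -0.20 for all liver probes: Cps1 at -0.98, Ndufa9 at -0.75 and Acss1 at 2.28 (adjusted p = 0.0481, 0.0478 and 0.00328). Acss1 therefore moved in opposite directions in the 2 organs, each by its own test, and neither of the lower calls in liver passed with spike-in scaling. None of the 12 was called in lung or WAT by limma.

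Regulators and targets of Sirt1 did not share a direction. In kidney 4 of 13 were higher and 5 lower, where 20.5% and 42.3% of all probes were. Their median of -0.24 is close to the -0.23 of all kidney probes. The called genes included Hic1, a repressor of Sirt1 transcription, at 1.76 (adjusted p = 0.00507), and Ppargc1a, Nr1h3 and Foxo4, transcriptional regulators that Sirt1 deacetylates, at -0.80, -0.79 and -0.71 (adjusted p = 0.00341, 0.000455 and 0.00243), and with spike-in scaling the 4 stayed higher and 0 were lower. In liver Foxo4 was at -2.21 (adjusted p = 0.00300), Stk11 at -0.57 (adjusted p = 0.0352) and Hic1 at 1.48 (adjusted p = 0.00978), and none of 13 was called in lung or WAT. The zinc-dependent histone deacetylases share some of the substrates of sirtuins but not their need for NAD+. In kidney 2 of 11 of these deacetylases were called higher and 6 lower, where 20.5% and 42.3% of all probes were, with a median of -0.39. They included Hdac9 at 1.93, Hdac8 at -0.75, Hdac11 at -0.73 and Hdac7 at 0.71 (adjusted p = 0.000364, 0.0010, 0.000744 and 0.00712), and with spike-in scaling 3 were higher and 0 lower, with Hdac5 changing sign. Hdac9 was the called member in liver, at 2.03 (adjusted p = 0.00335), and in lung, at 1.12 (adjusted p = 0.0479), and none was called in WAT. Of all probes, 10.2% were higher in liver and 2.70% in lung. The lung call of Hdac9 was lost with quantile normalization.

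The neighbours of the sirtuin genes on the chromosome gave a mixed picture. Psmd13, which shares its start region with Sirt3, fell by 0.61 in kidney (adjusted p = 0.00170) and by 0.52 in liver (adjusted p = 0.0414). The windows before Sirt2 and Sirt4 also overlap the start region of a gene read in the opposite direction, Nfkbib and Gm42007, respectively. Ric8a, which overlaps Sirt3, was at 0.25 in kidney (adjusted p = 0.0353), and Bet1l, on the other side, at -0.38 (adjusted p = 0.0104). Beside Sirt5, Nol7 was at -0.60 in kidney (adjusted p = 0.000844), and beside Sirt4, Pxn was called in no tissue, at -0.19 in kidney (adjusted p = 0.105). Beside Sirt2 the kidney change of Nfkbib was -0.32 (adjusted p = 0.0101) and that of Rinl 1.11 (adjusted p = 0.00147), and Rinl was also higher in liver and lung. Tle6 and Ankrd24 flank Sirt6 and were at 1.49 and -0.68 in kidney (adjusted p = 0.000164 and 0.00205). Herc4 and Dnajc12 beside Sirt1 and Pcyt2 and Mafg beside Sirt7 were all lower in kidney, at -1.19, -2.20, -1.38 and -0.41 (adjusted p = 0.000165, 0.000287, 0.000284 and 0.00813), and Dnajc12 was higher in liver, at 1.67 (adjusted p = 0.0474). Spike-in scaling raises every kidney change by the distance between the medians of -0.23 and 0.18 given above. The direction of the small changes of Bet1l, Nfkbib and Pxn therefore rests on the scaling, and the drop of Mafg is about as large as that distance.

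As a description over the 24 arrays, which share tissues and slides, the probes of Sirt7 (r = 0.96), Sirt4 (0.93 to 0.97) and Sirt2 (0.91) varied together, whereas those of Sirt6 did so less (0.62) and those of Sirt1 and Sirt5 little (0.28 and 0.29). Among the genes, Sirt3 was nearest to Sirt5 (0.83) and Sirt7 (0.79), Sirt4 to Sirt5 and Sirt3 (both 0.74), and the lowest values were for Sirt3 with Sirt6 (-0.67) and Sirt1 with Sirt5 (-0.66). Of 19277 genes, those whose pattern was most like a sirtuin by Pearson correlation of their brightest probes over the 24 arrays were Endog, Usp10 and Tprkb for Sirt3 (each 0.99), Cox6b1 (0.99), Ndufc1 and Acsf3 (0.98) for Sirt4, and Hars2, Glod4 and Kdelr1 (0.95) for Sirt5. For Sirt7 they were Dcaf12 (0.92), Foxl2 (0.91) and Ftl1 (0.90), and for Sirt6 Zfp651, Kbtbd3 (0.94) and Tmem8b (0.93). For Sirt1 they were Brd1 (0.83), Epc1 and Esco1 (0.82), and for Sirt2 Mtmr10 (0.86), Tbk1 and Ik (0.80).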

How the data were processed

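Total RNA of each sample was labelled with Cy3 and hybridised to a 1-colour Agilent mouse array, and the authors deposited the scanner output of Feature Extraction 11.0.1.1, whose processed signal is a fluorescence intensity after background subtraction on a linear scale. The design of the array rests on mm9, and the methods name a kit for human arrays, which the probe names go against. Probes were named by their accession, without version, through RefSeq on GRCm38.p6, which matched 32994 of 56605 probes. Flagged outlier and control spots were left out, spots of a probe were averaged as log2 intensity, and the 75th percentile of the array was subtracted, with no floor. No spot of a sirtuin probe was saturated. Signal over background and the number of arrays limit the precision.

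The age change was fitted in each tissue with limma 3.58.1 (R 4.3.3) on probes that 3 or more of its 6 arrays measured well above background, and levels by tissue and differences in age change on all 24 arrays. All p-values were adjusted by the Benjamini-Hochberg method over all probes tested and called at 0.05. They measure the spread between mice, and whether a mouse gave several tissues is not stated in the labels. Where a gene is counted once, its brightest probe stands for it. The code was tested on simulated data. Alternatives were normexp background correction, quantile normalization, scaling to the spike-in controls, no filter on dim probes, 1 probe or the mean of probes for a gene, the methods' t-test, the replicate number as a block, all arrays in 1 fit, each replicate left out and, chosen after seeing the data, the median change set to 0 and each of the 24 arrays left out of the test between tissues.

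The sirtuins, the gene lists, the cell type markers and the tests were chosen with earlier results of these data known. Named were all sirtuins, at most 4 called genes of a list and tissue with the largest changes, the neighbouring genes, and the 3 genes most like each sirtuin. Kynu in kidney, Nampt, Nmnat3, Ogg1, Hdac5 and the markers named were added after their values were seen. A gene of the substrate list and one of the tubule list are not reported here, and counts, medians and sums of these lists leave them out.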

Additional observations from a re-analysis of the deposited data

Results flagged for a closer look

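For 4 of the 7 sirtuin genes the age change differed between the 4 tissues by the F test of limma over all probes, which is why they are listed here. The adjusted p was 0.0283 and 0.0171 for the 2 probes of Sirt2, 0.00696 for Sirt3, 0.00310, 0.0156 and 0.0131 for the 3 probes of Sirt4, and 0.00140 and 0.000859 for the 2 probes of Sirt7. The background is wide, since 30.0% of all probes tested passed.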

How the results depend on the processing

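Of 448 alternative values of the age change of a sirtuin gene, 395 kept direction and side of the threshold, 25 lost the call, 14 gained it, 13 changed sign without a call under either setting, and 1 turned from or to a call. Of 840 values of a difference in level, 780 kept both, 11 changed sign without a call and 9 turned, and of 1470 values of a difference in age change, 1361 kept both, 51 changed sign without a call and 0 turned. Sign changes without a call came with several settings, whereas each turn from or to a call came with spike-in scaling: Sirt2 in kidney went to 0.084, liver minus lung to -1.25 for Sirt2, -0.13 for Sirt4 and -0.36 for Sirt7, liver minus kidney to -0.11 for Sirt7, liver minus WAT to -0.064 for Sirt4, lung minus kidney to 0.10 for Sirt5 and 0.25 for Sirt7, and lung minus WAT to 0.61 for Sirt3 and 0.063 for Sirt4. The cause was not tested.

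The number of genes called for age was 2 in liver, 0 in lung, 5 in kidney and 0 in WAT. It became 0 in liver and 2 in kidney with spike-in scaling, 3 in kidney and 1 in lung with quantile normalization, and 5 in liver and 3 in WAT when all 24 arrays shared 1 estimate of the spread. With the methods' t-test it was 4 in liver, 1 in lung and 1 in WAT unadjusted, and 1 in liver after adjustment. Over all probes that test gave 4400 higher and 8749 lower in liver, 2994 and 6440 in lung, 8148 and 17131 in kidney and 3304 and 3548 in WAT unadjusted, and 1436 and 1833, 162 and 205, 7275 and 15477, and 1 and 0 adjusted. Leaving out 1 replicate gave 0 to 3 genes in liver (0 without Liver_10W replicate 1 or 2, 1 without Liver_90W replicate 1 or 2, 3 without Liver_90W replicate 4), 0 in lung and WAT and 4 to 5 in kidney, 22 to 26 of 42 combinations of gene and tissue pair against 24 for levels, and 0 to 5 genes against 4 for the difference between tissues, which spike-in scaling took to 0.

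The replicate numbers were not taken to pair the samples. Deviations of equal number correlated at -0.11 to 0.15 between ages and -0.14 to 0.27 between tissues. Those of unequal number were not computed as a reference, so these values cannot show whether 1 mouse gave several tissues. With the number as a block 0 genes were called in liver, and no other count of genes moved by over 1.5 times. In liver the numbers 3 and 4 occur at 1 age only, so that this fit rests on replicates 1 and 2. A fit with the slide as a block was not possible across tissues, and the alternative on the authors' value table was not run, since no such values were analysed here. Sirt5 probe 2 and Sirt6 probe 2 were near background, which limits what they can show.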
